A study of Mus musculus with 79 samples.

Results

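The 10 genes described here are components and immediate outputs of the circadian clock, namely *Clock*, *Npas2*, *Per1*, *Per2*, *Per3*, *Cry1*, *Nr1d1*, *Nr1d2*, *Dbp* and *Ciart*. They were taken by gene symbol from 39063 genes in the deposited tables, and all 10 passed the filter of a mean of 0.4 TPM, reads scaled for transcript length and library size, that left 14873 genes for testing. The libraries were made from caudal vertebrae (CV), which are rich in stable constitutive bone marrow adipose tissue, lumbar vertebrae (LV), used as bone with little marrow fat, and inguinal white adipose tissue (iWAT). All mice were 4 to 5 months old and carried an intracerebroventricular (ICV) cannula that delivered PBS or leptin at 100 ng per h for 9 days. Genotypes were WT (BMAd-Pnpla2+/+) and cKO (BMAd-Pnpla2-/-), in which the triglyceride lipase ATGL is deleted in bone marrow adipocytes, so that iWAT and the other cells of the marrow keep the gene. CV was taken from 51 mice, LV from 18 females and iWAT from 10 female WT mice. Female WT groups held 5 mice per treatment and female cKO groups held 4. Male WT groups held 5 mice with PBS, 8 with leptin, 5 with PBS and a subcutaneous insulin pellet and 6 with leptin and a pellet, and male cKO groups held 5 with PBS and 4 with leptin. After recovery from surgery with free feeding, mice were pair fed with a weighed daily aliquot given late in the afternoon. They were kept in a light and dark cycle, and the hour of collection is not given in the sources used here.

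In the circadian clock, CLOCK or its relative NPAS2 pairs with the protein of *Arntl* (BMAL1) and switches on genes that carry an E-box. Among those genes are the period and cryptochrome repressors, which shut the pair off again, and the nuclear receptors REV-ERBα (*Nr1d1*) and REV-ERBβ (*Nr1d2*), which repress *Arntl*, *Clock* and *Npas2*. *Dbp* encodes an output factor that acts through D-boxes, and *Ciart* encodes CHRONO, a further repressor. In peripheral tissues the transcripts rise and fall over the day, follow feeding, and in the case of *Per1* also answer to glucocorticoids and to acute stimuli, so that a level at 1 time of collection is a phase as well as an amount.

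The activators lie at chr5:76209868-76305603 (*Clock*) and chr1:39193702-39363240 (*Npas2*) of GRCm38.p6. The repressors lie at chr11:69095108-69109965 (*Per1*), chr1:91415977-91459351 (*Per2*), chr4:150997018-151044707 (*Per3*), chr10:85131700-85185054 (*Cry1*) and chr3:95878500-95882257 (*Ciart*). The REV-ERB genes lie at chr11:98767932-98775377 (*Nr1d1*) and chr14:18204056-18239106 (*Nr1d2*), and the output gene *Dbp* at chr7:45705100-45710203. All are protein coding, and 7 overlap another annotated gene: *Nr1d1* shares 1075 bases with *Thra*, *Dbp* shares 741 bases with *Sphk2* on the other strand, *Per3* shares 4714 bases with *Uts2*, and *Ciart* lies inside a long non-coding RNA. Whether reads were counted by strand is not given in the sources used here, so reads from such partners cannot be told apart.

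Libraries held 16100377 to 19364106 counts in CV, 28717516 to 29757254 in LV and 17638318 to 19100698 in iWAT. Mouse numbers in the labels fall into ranges such as the 100s and 600s, called series here. Mice without a pellet were numbered in the 100s and 600s, and some cKO mice in the 5400s. For *Per1* and *Ciart*, 3 male WT leptin libraries of the 600s stood apart, and results that rest on them are given with and without them. P-values of comparisons between groups of mice measure the spread between these mice. Contrasts between tissues used the mouse as a block, so their p-values measure the spread left within mice. Correlations between tissues were tested by permutation.

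The promoter windows of RefSeq show which members carry these elements near their start sites. Windows of 300 bases, from 250 before to 50 after a start, were held for 9 members. Both strands were searched for the exact letters of each motif spelled out below. The 4 windows printed are those with an E-box (CACGTG) or a D-box (TTATGTAA), shown because *Per1* and *Ciart* moved together in the data below. Each is written 5′ to 3′ on the strand of the gene in build GRCm38.p6, with the E-boxes or D-boxes in capitals.

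*Ciart* (minus strand, chr3:95882179-95882478): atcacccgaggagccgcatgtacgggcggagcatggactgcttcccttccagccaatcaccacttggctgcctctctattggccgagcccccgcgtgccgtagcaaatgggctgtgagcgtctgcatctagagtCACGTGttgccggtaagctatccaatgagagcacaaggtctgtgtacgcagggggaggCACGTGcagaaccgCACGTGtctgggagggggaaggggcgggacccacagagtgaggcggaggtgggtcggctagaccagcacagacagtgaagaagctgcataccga

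*Per1*, first of its 2 windows (plus strand, chr11:69098699-69098998): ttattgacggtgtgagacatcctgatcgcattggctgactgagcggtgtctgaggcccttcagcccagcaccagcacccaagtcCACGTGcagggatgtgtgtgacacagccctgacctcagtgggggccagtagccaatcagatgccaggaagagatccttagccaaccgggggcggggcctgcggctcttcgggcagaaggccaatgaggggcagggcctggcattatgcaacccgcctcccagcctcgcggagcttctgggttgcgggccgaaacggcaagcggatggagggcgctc

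*Cry1* (minus strand, chr10:85185005-85185304): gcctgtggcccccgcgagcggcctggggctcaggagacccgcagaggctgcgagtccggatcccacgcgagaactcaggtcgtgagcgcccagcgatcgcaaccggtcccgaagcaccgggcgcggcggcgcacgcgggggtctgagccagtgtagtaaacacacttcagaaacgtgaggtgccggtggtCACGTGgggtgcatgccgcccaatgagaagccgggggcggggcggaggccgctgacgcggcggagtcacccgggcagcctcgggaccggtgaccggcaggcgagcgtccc

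*Per3* (minus strand, chr4:151044616-151044915): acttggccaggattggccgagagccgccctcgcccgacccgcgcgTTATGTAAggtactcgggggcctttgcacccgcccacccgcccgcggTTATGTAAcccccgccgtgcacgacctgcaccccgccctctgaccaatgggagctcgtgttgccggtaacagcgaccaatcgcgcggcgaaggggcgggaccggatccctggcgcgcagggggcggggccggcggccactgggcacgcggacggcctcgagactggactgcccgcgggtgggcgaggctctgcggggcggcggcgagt

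The *Ciart* window held 3 E-boxes, a number reached by 29 of all 32851 windows, or 0.0883%. *Per1* and *Cry1* held 1 each, and 7.15% of all windows held at least 1. The 2 D-boxes of *Per3* are an element found in 0.938% of windows. The core of the element bound by the REV-ERB and ROR receptors (AGGTCA) stood in windows of *Per1*, *Nr1d2* and *Clock*, and in 16.3% of all windows. A full cyclic AMP response element (TGACGTCA, in 1.79% of windows) was found in none of the 12 member windows, while its shorter form TGACGT, which the full element contains, stood in the second *Per1* window and in 7.51% of all windows. These matches describe the letters of the windows and are not evidence of binding.

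Levels of the 10 genes were first compared between tissues of the same 5 female WT mice with PBS. Defining markers placed the tissues as labelled, with summed adipocyte markers at 18770 to 26927 TPM in iWAT and 27.6 to 105 TPM in LV of female WT mice with PBS. CV of the same 5 mice held 2421 to 4468 TPM of adipocyte markers beside 16290 to 36483 TPM of skeletal muscle markers. LV of these mice held 740 to 2529 TPM of muscle markers. Neutrophil markers summed to 95940 to 118930 TPM in LV and 1568 to 8251 TPM in CV. Erythroid markers summed to 1482 to 1746 TPM in LV and 17.4 to 49.6 TPM in CV. No marker of these lists was at 0 in every library of a group. The part of this cell mix in the differences between tissues was not tested. In bulk tissue, fewer cells of a type and less RNA per cell cannot be told apart.

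*Nr1d1* was the most abundant member in CV of female WT mice with PBS, at 175, 143, 144, 109 and 116 TPM, and stood at 7.9, 8.65, 6.53, 5 and 5.45 TPM in LV of those 5 mice. The LV values all lay far below the CV values. *Ciart* measured 15, 12, 9.83, 15.1 and 19.2 TPM in CV and 0.96, 0.77, 0.49, 0.89 and 0.93 TPM in LV. *Npas2*, the lowest member, measured 4.87, 3.57, 4.83, 3.85 and 3.67 TPM in CV and 0.33, 0.33, 0.66, 0.14 and 0.31 TPM in LV. None of these 3 genes overlapped between both vertebral sites. The share of all genes without overlap between tissues was not computed.

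With the libraries scaled by TMM, a factor that sets the bulk of genes equal, 9 of 10 members were lower in LV than in CV of the same mice, where 34.7% of all genes tested were lower. The log2 fold change was -3.25 ± 0.14 (SE) for *Nr1d1* (adjusted p = 6.06e-10, edgeR's quasi-likelihood test), -2.97 ± 0.36 for *Ciart*, -2.61 ± 0.42 for *Npas2* and between -1.99 (*Dbp*) and -1.03 (*Per2*) for 6 others. *Cry1*, a repressor of CLOCK and BMAL1, did not pass the test at 0.02 ± 0.15 (adjusted p = 0.912). On the TPM scale the median of all genes was itself 1.08 log2 units lower in LV, and *Cry1* was lower there by 1.09. Of 16 further clock genes tested, 11 were lower and 2 higher in LV.

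iWAT lay closer to CV. *Dbp* was the member with the highest level there, at 129, 74.3, 101, 235 and 243 TPM in the 5 mice with PBS, against 113, 102, 83.4, 84.2 and 101 TPM in their CV. The ranges overlapped, and the highest iWAT values belonged to the 2 mice numbered in the 600s. *Dbp* was 0.73 ± 0.25 log2 units higher in iWAT (adjusted p = 0.0187) and was the only member called higher, where 25.1% of genes were. Without either of those 2 mice the difference was 0.49 (adjusted p = 0.0989) or 0.54 (adjusted p = 0.101). *Clock*, *Npas2*, *Per1*, *Cry1*, *Nr1d2* and *Ciart* were lower in iWAT than in CV by 0.51 to 1.44 log2 units, where 25.6% of genes were lower, while *Per2*, *Per3* and *Nr1d1* did not pass the test. The call for *Ciart* was lost without PBS replicate 3 (-0.71, adjusted p = 0.0736) and without the mouse as a block (-0.74, adjusted p = 0.127). *Per1* fell below the fold threshold without PBS replicate 2 (-0.47) or 3 (-0.36) and without the block (-0.48).

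Between iWAT and LV, 9 members were higher in iWAT, led by *Nr1d1* (3.08 ± 0.14) and *Dbp* (2.72 ± 0.26), where 34.0% of genes were higher. The call for *Npas2* was lost without PBS replicate 1 (1.10, adjusted p = 0.0797), 2 (0.90, adjusted p = 0.104) or 3 (1.07, adjusted p = 0.0753). *Cry1* was lower by 0.88 ± 0.15 (adjusted p = 1.62e-04) after TMM scaling, where 33.0% of genes were lower, and stood at 0.06 (adjusted p = 0.778) on the TPM scale. Its TPM values overlapped, at 6.95, 6.02, 5.26, 10.3 and 10.4 in iWAT and 7.2, 7.61, 7.87, 5.54 and 8.16 in LV. The direction for *Cry1* between those tissues therefore rests on the scaling.

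**Figure D1:**
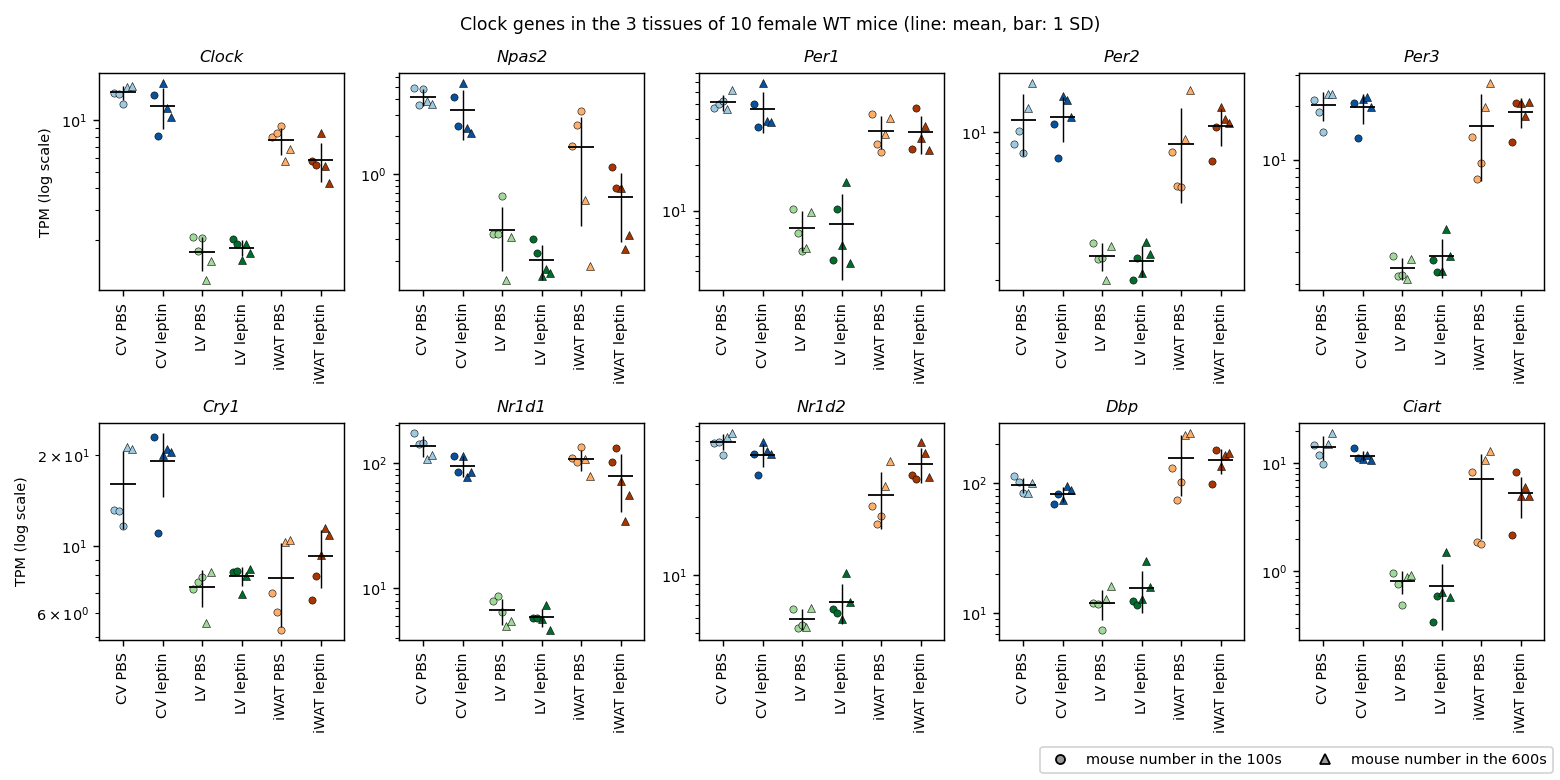
TPM of each clock gene (log axis) in CV, LV and iWAT of 10 female WT mice, 5 with PBS and 5 with leptin. Points are mice, lines are means and bars are 1 SD, and the shape marks the series of the mouse number. Every member except *Npas2* and *Cry1* is lower in each LV library of these mice than in each iWAT library. The share of all genes that separate these tissues was not computed. The values within a tissue largely overlap between treatments.

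The effect of leptin was first read in CV of female WT mice. *Nr1d1* measured 175, 143, 144, 109 and 116 TPM with PBS and 114, 84.8, 115, 77.7 and 84.4 TPM with leptin. The groups overlapped, since the PBS mice numbered in the 600s were at the level of the highest leptin mice. *Nr1d1* was lower by 0.57 ± 0.16 log2 units (adjusted p = 0.0498), and it was the 1 of 10 members called, where 2.25% of genes were called lower. The call was lost when any 1 of 7 of the 10 mice was left out, with a range of -0.65 to -0.43 over all alternatives.

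*Nr1d2*, its paralog, measured 48.5, 49.6, 42.4, 52.2 and 55.1 TPM with PBS and 42.9, 33.3, 49.5, 44.2 and 42.7 TPM with leptin. The leptin values lay mostly below the PBS values and overlapped them. The difference of -0.25 ± 0.07 (adjusted p = 0.0472) was below the fold threshold of 0.5. *Clock* (-0.30 ± 0.12, adjusted p = 0.135) and *Dbp* (-0.27 ± 0.12, adjusted p = 0.188) did not pass the test. *Npas2*, *Per1*, *Per2*, *Per3*, *Cry1* and *Ciart* lay between -0.39 and 0.22 and did not pass either. The median over the 10 members was -0.26, beside -0.01 over all genes tested.

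Markers of several cell types also differed between these groups, and their part in the *Nr1d1* difference was not tested beyond the muscle score given here. Osteoblast markers summed to 2276 to 6316 TPM with PBS and 5278.5 to 16015 TPM with leptin, and 3 of 5 were called higher. Of 5 adipocyte markers 3 were called lower, with sums of 2421 to 4468 TPM and 1480.5 to 3360.5 TPM. Cartilage markers summed to 1269 to 1479 TPM and 709 to 1312 TPM with none of 5 called (3 were lower at an unadjusted p under 0.05), and the erythroid markers *Alas2* (2.00) and *Slc4a1* (-1.84) were called in opposite directions. Summed muscle markers ranged from 16290 to 36483 TPM (median 35263) in CV of the PBS females and from 13084 to 32226 TPM (median 13463) with leptin. With a muscle score as a covariate, *Nr1d1* was lower by 0.43 (adjusted p = 0.0711). The mouse number series was unevenly spread as well: 3 of 5 PBS mice and 2 of 5 leptin mice were numbered in the 100s, the others in the 600s. A covariate for the series left *Nr1d1* at -0.47 (adjusted p = 0.033), past the test and below the fold threshold. Within the 100s *Nr1d1* differed by -0.63 ± 0.16 (adjusted p = 0.0816) and within the 600s by -0.30 ± 0.16 (adjusted p = 0.38).

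In LV of the same females none of the 10 members was called, nor was any of all genes tested (0%). At an unadjusted p under 0.05, 1 member was higher and 1 lower by edgeR, beside 14.7% of all genes in either direction, and DESeq2 called 0. *Npas2* measured 0.33, 0.33, 0.66, 0.14 and 0.31 TPM with PBS and 0.3, 0.23, 0.15, 0.17 and 0.16 TPM with leptin, a difference of -0.83 ± 0.32 (adjusted p = 0.254) at levels under 1 TPM. *Nr1d2* measured 6.71, 5.29, 5.48, 5.41 and 6.73 TPM with PBS and 6.65, 6.4, 5.89, 10.2 and 7.24 TPM with leptin, a difference of 0.26 ± 0.11 (adjusted p = 0.324). Both genes overlapped between treatments.

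In iWAT, 0 of 10 members were called by edgeR, beside 15.1% of all genes, and 1 by DESeq2, beside 16.8%. At an unadjusted p under 0.05 1 member was higher, as were 21.8% of all genes. That gene was *Nr1d2*, at 22.9, 18.4, 20.3, 29.3 and 39.5 TPM with PBS and 33.3, 31.5, 49.2, 43 and 32.6 TPM with leptin. Only the last PBS mouse, numbered in the 600s, reached the leptin range. The difference was 0.64 ± 0.22 (adjusted p = 0.0531). With the replicate number as a block it was 0.67 (adjusted p = 0.0482) and without the last PBS mouse 0.80 (adjusted p = 0.018).

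*Npas2*, which pairs with BMAL1 like CLOCK, measured 1.69, 2.47, 3.2, 0.62 and 0.18 TPM in iWAT with PBS and 1.13, 0.77, 0.77, 0.25 and 0.32 TPM with leptin. The 3 highest values were those of PBS mice in the 100s, while the PBS mice of the 600s lay within or below the leptin range. Its difference of -1.25 ± 0.65 did not pass the test (adjusted p = 0.174). Within the 100s it was -1.32 ± 0.59 (adjusted p = 0.196) and within the 600s 0.26 ± 0.64 (adjusted p = 0.822). Adipocyte markers in iWAT summed to 18770 to 26927 TPM with PBS and 40428 to 63809 TPM with leptin, and their part in these values was not tested.

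The leptin effect was then compared between tissues of the same 10 mice, with the mouse as a block. For *Nr1d2* the effect was higher in iWAT than in CV by 0.89 ± 0.17 log2 units (adjusted p = 0.00145), the only member called there, where 6.32% of genes were called higher. Over the alternatives the value ranged from 0.77 to 1.05, with adjusted p from 3.40e-04 to 0.00721. Between LV and CV, 0 members were called (0.699% of genes were), DESeq2 was not run on this contrast, and 2 were higher at an unadjusted p under 0.05, as were 5.27% of genes, namely *Nr1d2* (0.49 ± 0.18, adjusted p = 0.198) and *Clock* (0.40 ± 0.17, adjusted p = 0.309). Between iWAT and LV, 0 were called (14.0% of genes were), and 2 were higher and 1 lower at an unadjusted p under 0.05, which 34.6% of genes passed in either direction. These were *Per2* (0.53, adjusted p = 0.0944), *Nr1d2* (0.40, adjusted p = 0.111) and *Clock* (-0.40, adjusted p = 0.0969). The *Nr1d1* difference seen in CV was not shown to differ in LV (0.35 ± 0.27, adjusted p = 0.666) or in iWAT (0.11 ± 0.27, adjusted p = 0.819).

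**Figure D2:**
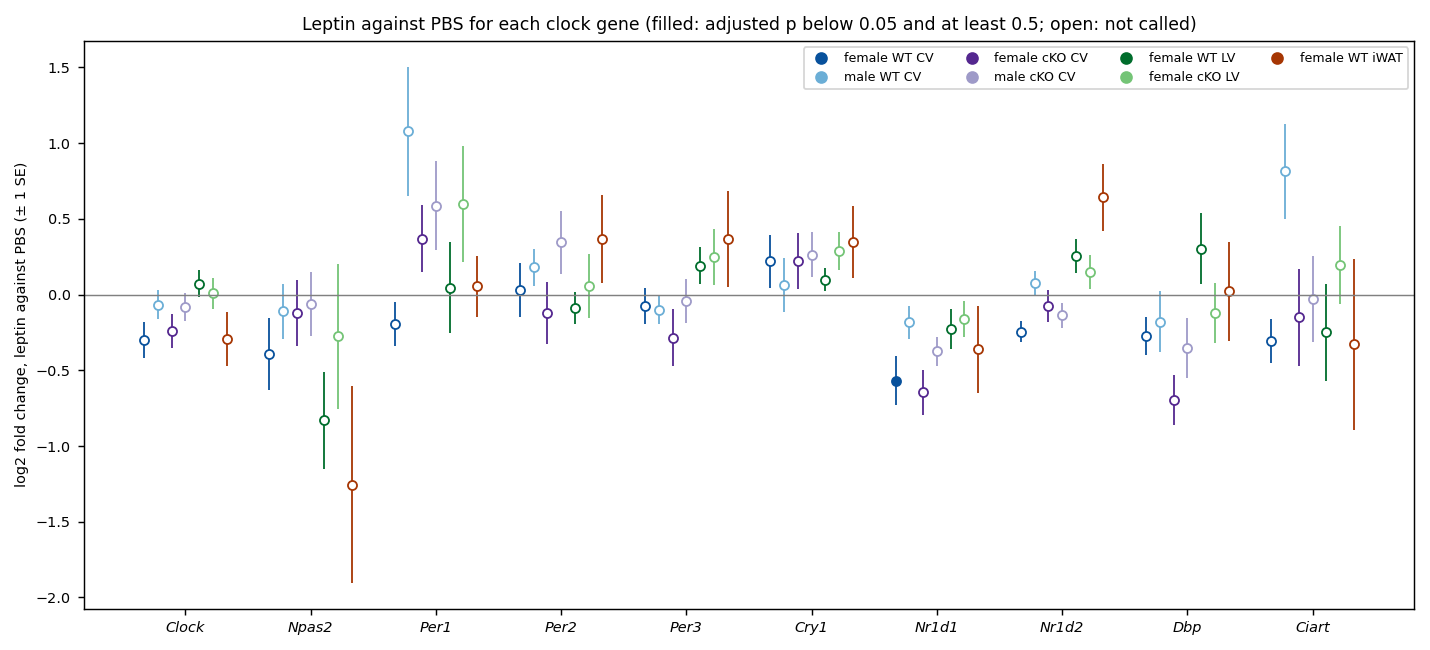
Log2 fold change of leptin against PBS (± 1 SE) for each clock gene in 7 groups of sex, genotype and tissue. The filled point, *Nr1d1* in female WT CV, is the only one with an adjusted p below 0.05 and a size of at least 0.5. *Nr1d1* lies below 0 in all 7 groups. The tissues of female WT mice share the same mice, as do those of female cKO mice, so the 7 values are not independent.

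In the cKO mice, *Nr1d1* in female CV measured 146, 138, 142 and 151 TPM with PBS and 74.2, 95.2, 78.3 and 98 TPM with leptin. The groups did not overlap. The difference was -0.65 ± 0.15 (adjusted p = 0.203), and 0.0269% of all genes were called in this comparison. *Dbp* likewise measured 119, 111, 125 and 152 TPM with PBS and 55, 94.8, 76 and 67.1 TPM with leptin, without overlap (-0.70 ± 0.17, adjusted p = 0.236). Of all genes, 3.62% lay below without overlap in the same way. edgeR called 0 of 10 members here, with 2 lower at an unadjusted p under 0.05, as were 6.09% of genes. DESeq2 called both, beside 1.47% of all genes.

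Male cKO mice gave a smaller difference for *Nr1d1* in CV, from 126, 153, 127, 128 and 128 TPM with PBS to 119, 102, 88.3 and 88.3 TPM with leptin. The groups did not overlap, as for 1.82% of all genes in that direction. The fold change was -0.38 ± 0.10 (adjusted p = 0.159), and edgeR and DESeq2 each called 0 members, beside 0.188% of all genes called by edgeR. At an unadjusted p under 0.05, 1 member was lower, as were 4.89% of genes.

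In LV of female cKO mice *Cry1* measured 6.63, 6.91, 6.45 and 5.48 TPM with PBS and 7.85, 8.96, 7.73 and 9.65 TPM with leptin. The groups did not overlap, as for 4.02% of all genes in that direction, and the difference was 0.29 ± 0.12 (adjusted p = 0.544). Neither tool called a member, 0% of all genes were called, and 1 member was higher at an unadjusted p under 0.05, as were 4.41% of genes. Whether the leptin effect differed between genotypes was tested in female CV, where edgeR called no member and 0% of all genes, and no member was below an unadjusted p of 0.05, which 6.09% of genes were. The difference for *Dbp* was -0.44 (adjusted p = 0.822).

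Male WT mice differed from the other groups through 3 libraries. In CV *Per1*, an early responder among the period genes, ranged from 26.3 TPM (lowest) to 145 TPM (highest) with leptin, median 46.2 TPM, and measured 27.4, 39.1, 36.7, 30.1 and 38 TPM with PBS. The 3 leptin mice numbered in the 600s stood at 114, 131 and 145 TPM, and the 5 numbered in the 100s at 33.4, 52.9, 37, 39.5 and 26.3 TPM. *Ciart* showed the same 3 mice at 47.4, 48.6 and 47 TPM, the other 5 leptin mice at 19.8, 18.2, 18.7, 23.4 and 16.5 TPM and the PBS mice at 12.7, 17.7, 16.4, 16.9 and 18.5 TPM. For both genes these 3 libraries lay above all others of male CV, and the leptin mice of the 100s overlapped with PBS.

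Over all 8 leptin mice, *Per1* was higher by 1.08 ± 0.43 (adjusted p = 0.189) and *Ciart* by 0.81 ± 0.32 (adjusted p = 0.178). edgeR and DESeq2 each called 0 of 10 members, while edgeR called 1.75% of all genes, and 2 members were higher at an unadjusted p under 0.05, as were 9.45% of genes. Without the 3 mice the values were 0.05 (adjusted p = 0.9) for *Per1* and 0.13 (adjusted p = 0.657) for *Ciart*. The other 8 members lay between -0.18 and 0.18. *Nr1d1* measured 127, 175.6, 148, 120.3 and 129 TPM with PBS and from 101 to 159.9 TPM with leptin (median 129.8), overlapping throughout (-0.18 ± 0.11, adjusted p = 0.396).

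The leptin effect was then compared between both series of mouse numbers, a test chosen after these values were seen. The split was made because the leptin libraries of the 600s stood apart for *Per1* and *Ciart*. The p-values for these genes are therefore not independent support. The series differed by 1.88 ± 0.27 for *Per1* (adjusted p = 0.00374) and by 1.17 ± 0.22 for *Ciart* (adjusted p = 0.0226), 2 members of 10, where 1.09% of all genes were called. Within the 600s, with 3 leptin and 2 PBS mice, *Per1* was higher with leptin by 1.95 ± 0.23 (adjusted p = 2.22e-04) and *Ciart* by 1.39 ± 0.18 (adjusted p = 4.45e-04), where 4.98% of genes were called. In that comparison the muscle markers *Acta1*, *Ckm*, *Tnnt3* and *Mylpf* were lower by 0.86 to 1.32 log2 units, 4 of 5 on the list, and 2 of 5 adipocyte markers were called lower, while none of either list was called within the 100s (1 and 3 were lower there at an unadjusted p under 0.05). Their part in the *Per1* and *Ciart* values was not tested. Within the 100s the differences were 0.06 and 0.22, edgeR called 0 members beside 0.430% of all genes, and none was below an unadjusted p of 0.05, which 13.8% of genes were. The remaining members did not pass the test between series, with *Per2*, *Nr1d1* and *Nr1d2* within 0.05 of 0.

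**Figure D3:**
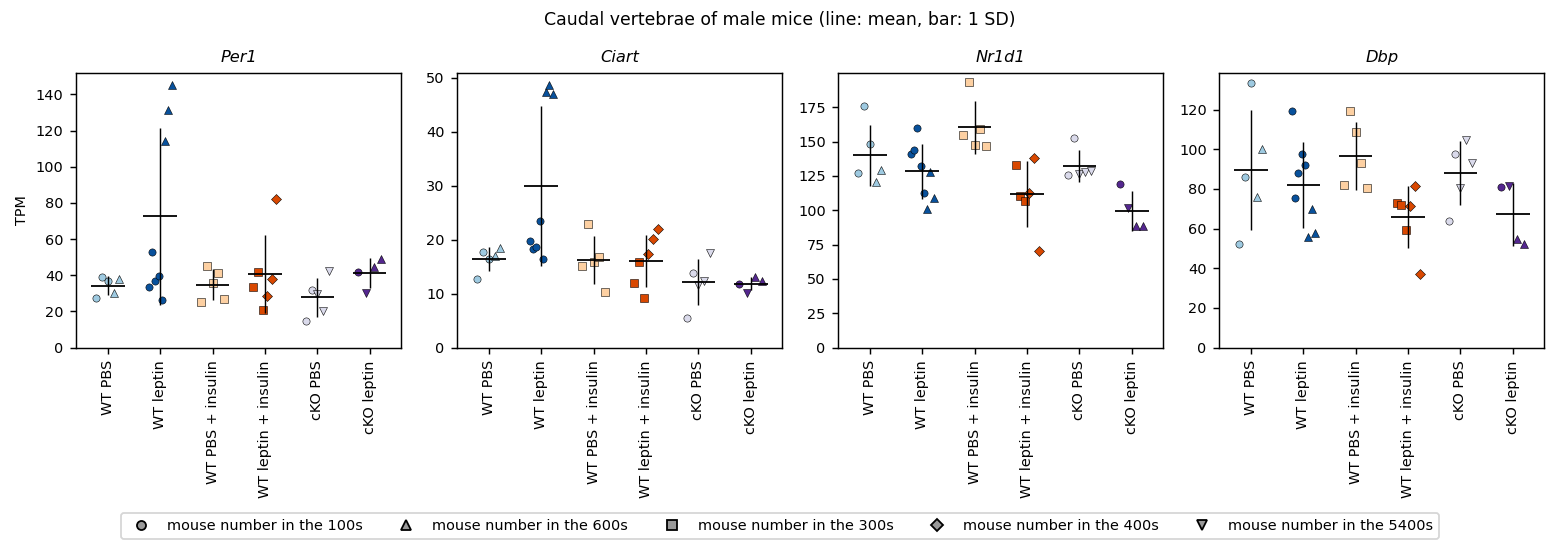
TPM of *Per1*, *Ciart*, *Nr1d1* and *Dbp* in CV of the 6 groups of male mice. Points are mice, lines are means and bars are 1 SD, and the shape marks the series of the mouse number. The 3 WT leptin mice of the 600s stand above all others for *Per1* and *Ciart* and lie within the range of the other mice for *Nr1d1* and *Dbp*.

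Immediate-early genes and *Sgk1*, a glucocorticoid target, stood high beside *Per1* in these 3 libraries. *Nfil3*, the repressor that competes with DBP for D-boxes, stood at 115 to 145 TPM there, at 16.4 to 32.8 TPM in the other leptin mice and at 14.9 to 22.6 TPM with PBS. *Fos* stood at 52.8 to 190.1 TPM against 11.2 to 19 TPM, *Junb* at 225 to 311 against 46.2 to 56.4 TPM, and *Sgk1* at 287 to 329 against 66.7 to 125 TPM. Of 6 immediate-early genes 5 were called in the comparison of series, as was *Sgk1* alone of 5 glucocorticoid targets, where 1.09% of all genes were called. The split was chosen because these 3 libraries stood apart for *Per1*, with which these genes vary in CV. Their calls are therefore not independent support either. Male cKO leptin mice of the 600s, at 44.4 and 49 TPM of *Per1* and 9.51 to 9.81 TPM of *Fos*, did not share the levels. A partial form appeared outside the 600s, in replicate 6 of the males with leptin and insulin, numbered in the 400s. Its *Nfil3* was at 89.63 TPM (others of its group 19.35 to 30.2) and *Fos* at 37.46 TPM (others 10.98 to 22.22). *Junb* was at 181.17 TPM (others 29.01 to 47.86) and *Sgk1* at 278.05 TPM (others 64.09 to 101.52). *Fosb*, at 1.18 TPM, lay within the range of that group. What the 3 WT leptin mice of the 600s had in common other than treatment and number was not tested.

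No clock gene passed the test between PBS mice with and without an insulin pellet. With PBS and a pellet *Per1* measured 25.1, 45, 35.7, 41.2 and 27.1 TPM, *Nr1d1* 155, 194, 147, 159 and 147 TPM, and *Dbp* 82.1, 119.6, 109, 92.9 and 80.5 TPM. All 3 genes overlapped with the PBS mice without a pellet. The 10 fold changes lay between -0.17 (*Per3*) and 0.10 (*Nr1d1*), edgeR called no member and 0% of all genes, DESeq2 called no member, and none was below an unadjusted p of 0.05, which 6.56% of genes were. All pellet mice were numbered in the 300s or 400s and no other mouse was, so pellet and number series cannot be told apart.

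With leptin and a pellet, *Nr1d1* ranged from 70.2 to 138 TPM with a median of 111 TPM. It lay below every mouse with PBS and a pellet, as did 2.29% of all genes, with a difference of -0.47 ± 0.14 (adjusted p = 0.101). edgeR and DESeq2 called 0 members, 2 were lower at an unadjusted p under 0.05, as were 8.20% of genes, and 0.558% of all genes were called by edgeR. *Dbp* ranged from 37.3 to 81.3 TPM (median 71.6) and overlapped at its upper end (-0.49, adjusted p = 0.265). Against PBS without a pellet, *Nr1d1* (-0.37, adjusted p = 0.183) and *Dbp* (-0.48, adjusted p = 0.245) were again the 2 members below an unadjusted p of 0.05, beside 9.19% of genes that were lower at that p. There both tools called 0, and edgeR called 1.10% of all genes. These 2 comparisons share the leptin and insulin mice.

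Leptin with a pellet against leptin alone gave -0.91 ± 0.28 for *Ciart* (adjusted p = 0.112) and -0.87 ± 0.37 for *Per1* (adjusted p = 0.236). edgeR called 0 of 10 members, beside 0.363% of all genes, and DESeq2 called *Ciart*, beside 1.17%. At an unadjusted p under 0.05 2 members were lower, as were 9.01% of genes. *Ciart* ranged from 9.25 to 21.9 TPM with both treatments, within the range of the leptin mice of the 100s at its upper end and below it otherwise. Without the 3 leptin mice of the 600s *Ciart* was at -0.23 (adjusted p = 0.618) and *Per1* turned to 0.15 (adjusted p = 0.809). In the test of insulin by leptin, 0 members and 0% of all genes were called by edgeR, and no member was below an unadjusted p of 0.05, which 9.31% of genes were.

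Between the sexes the leptin effect in WT CV was -1.24 for *Per1* (adjusted p = 0.598) and -1.09 for *Ciart* (adjusted p = 0.541) when the male effect was subtracted from the female. edgeR called 0 members and 0% of all genes, and 3 members were lower at an unadjusted p under 0.05, as were 2.79% of genes. Without the 3 male leptin mice the differences were -0.23 and -0.42.

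The series of mouse numbers was also compared within females, with treatment in the model. *Per2* in CV of the PBS mice measured 8.76, 10.2 and 7.97 TPM in the 100s and 13.1 and 17.1 TPM in the 600s, and in the leptin mice 10.9 and 7.58 TPM in the 100s and 14.8, 14.2 and 11.8 TPM in the 600s. Every mouse of the 600s lay above every mouse of the 100s, and the share of all genes separated by series was not computed. The difference was 0.52 ± 0.10 (adjusted p = 0.0207), 1 of 10 members called, where 2.06% of genes were.

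*Cry1* in iWAT was the corresponding gene of that depot, at 6.95, 6.02 and 5.26 TPM in PBS mice of the 100s, 10.3 and 10.4 TPM in those of the 600s, 6.62 and 7.97 TPM in leptin mice of the 100s and 9.32, 11.4 and 10.9 TPM in those of the 600s. Both series were again separate, with a difference of 0.72 ± 0.11 (adjusted p = 0.0367), where 0.282% of genes were called. The share of all genes separated in this way was not computed here either. In iWAT 5 members were higher and 2 lower in the 600s at an unadjusted p under 0.05, which 14.6% of genes passed in either direction. *Npas2* was lower by 1.77 ± 0.50 (adjusted p = 0.16) and *Dbp* higher by 0.77 (adjusted p = 0.189). In LV 0 members were called (0.598% of genes were), with 3 higher and 2 lower at an unadjusted p under 0.05, which 23.1% of genes passed. What set the series apart, the hour of collection included, was not tested.

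Whether mice with a high level in 1 tissue were also high in another was asked after the mean of each group was subtracted from log2(TPM + 0.1). Between CV and LV of 18 females, 9 of 10 members had a positive Pearson's r, with a median of 0.319 and a range of -0.239 to 0.696. Between CV and iWAT of 10 females 9 were positive (median 0.434), and between LV and iWAT 8 (median 0.33). Of these 30 relations none had an adjusted p below 0.05 by permutation within groups.

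*Dbp* gave the smallest p, with r = 0.673 between CV and LV (permutation p = 0.00209, adjusted p = 0.0627) and Spearman's rho = 0.593 (permutation p = 0.0135, adjusted p = 0.094). Without the 2 mice farthest from the CV median r was 0.645, and with the series also subtracted, over 15 mice, it was 0.828 (permutation p = 0.00563, adjusted p = 0.103). *Per3* followed with r = 0.696 (permutation p = 0.00799, adjusted p = 0.12), rho = 0.651 (permutation p = 0.0157, adjusted p = 0.094) and r = 0.73 without the 2 farthest mice. Within group and series *Per3* was at 0.673 (permutation p = 0.0452, adjusted p = 0.452).

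*Nr1d2* had r = 0.695 between CV and iWAT (permutation p = 0.019, adjusted p = 0.143), rho = 0.842 (permutation p = 0.00632, adjusted p = 0.0632) and r = 0.836 without the 2 farthest of 10 mice. Within group and series it fell to 0.435 (permutation p = 0.172, adjusted p = 0.516). *Per1* had r = 0.793 between LV and iWAT (permutation p = 0.0126, adjusted p = 0.126), rho = 0.842 (permutation p = 0.00424, adjusted p = 0.0632), r = 0.884 without the 2 farthest mice and 0.853 within group and series (permutation p = 0.00685, adjusted p = 0.103). Between CV and iWAT the same gene was at -0.23 (permutation p = 0.58, adjusted p = 0.685), with rho = -0.261 (permutation p = 0.499, adjusted p = 0.651) and r = -0.661 without the 2 farthest mice.

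*Per2* between CV and iWAT had r = 0.71 (permutation p = 0.0334, adjusted p = 0.178), rho = 0.83 (permutation p = 0.00597, adjusted p = 0.0632) and r = 0.74 without the 2 farthest mice. Within group and series it was at 0.071 (permutation p = 0.894, adjusted p = 0.958).

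**Figure D4:**
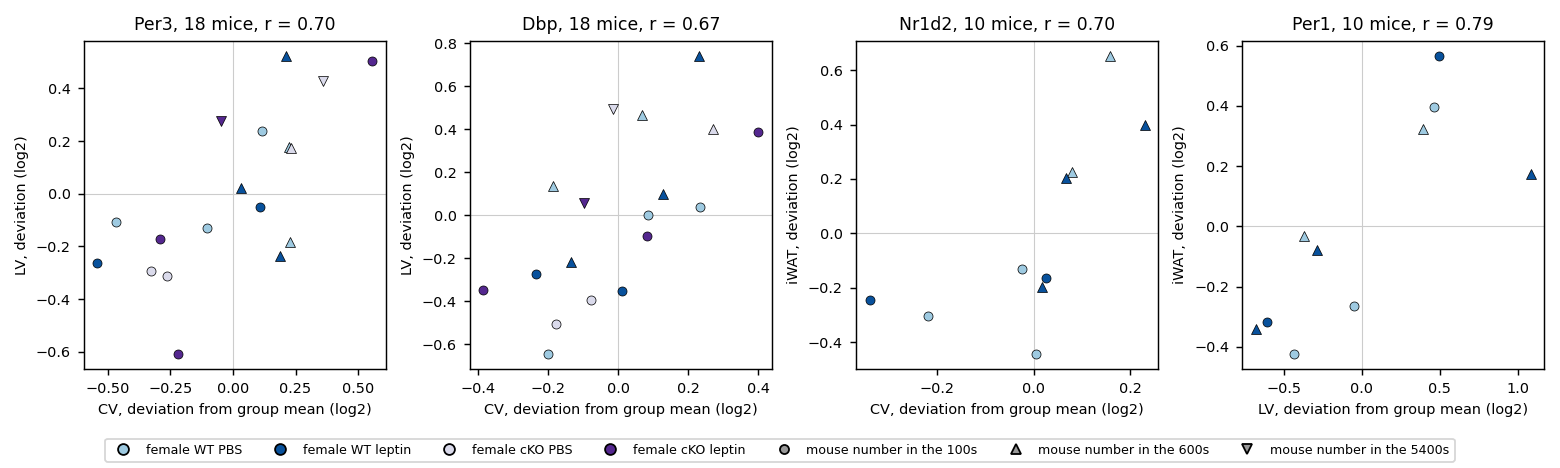
Deviation of each mouse from its group mean, as log2(TPM + 0.1), in 1 tissue against another for 4 of the 5 relations with the highest r among 30, *Per2* between CV and iWAT being left out. Points are female mice, colour marks genotype and treatment, and shape marks the series of the mouse number. In these 4 panels, chosen for their high r, mice high in the first tissue tend to be high in the second. None of the 30 relations had an adjusted p below 0.05 by permutation within groups. The 4 mice highest in iWAT in the *Nr1d2* panel are of the 600s.

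How the members varied with one another in CV is given as a description over 51 libraries that share tissue and pipeline, as deviations from group means. *Per1* and *Ciart* had the highest correlation of any pair (r = 0.79), followed by *Clock* with *Nr1d2* (0.693), *Per3* with *Nr1d2* (0.688) and *Per2* with *Per3* (0.687). *Dbp* ran against *Cry1* (-0.431), *Per1* (-0.362) and *Npas2* (-0.321). Without the 3 male leptin mice of the 600s, *Per1* was at 0.714 with *Ciart* and at -0.232 with *Dbp*. Pairs without *Per1* were not recomputed in this way.

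The gene most like *Npas2* among 13583 genes was *Arntl* (r = 0.794), which encodes the partner of NPAS2, and *Clock* ranked 4 (0.684). *Fbxo30* (0.718), *Foxn3* (0.686) and *Zcchc9* (0.682), not on the clock lists used here, ranked 2, 3 and 5. Those most like *Dbp* were *Swi5* (0.716), *Lefty1* (0.689), *Pkia* (0.668), *Pyurf* (0.662) and *Prdx2* (0.6615), none of them on the clock lists. Among the members *Nr1d1* came closest to *Dbp*, at rank 143 (0.527). The gene least like *Dbp* was *Nfil3* (r = -0.703). That value includes the 3 male leptin mice of the 600s, in which *Nfil3* stood high, and was not recomputed without them. The genes most like *Per1* were *Sgk1* (0.932), *Pim3* (0.919), *Errfi1* (0.912), *Cebpd* (0.904) and *Tsc22d3* (0.899). Without the 3 male leptin mice of the 600s, *Sgk1* (0.904), *Tsc22d3* (0.883), *Pim3* (0.88) and *Errfi1* (0.874) led again, over 48 libraries.

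Further genes of the clock and of its outputs were read from a list of 17 clock genes, of which 16 were tested, and 4 output genes. With leptin in iWAT 2 of the clock genes were called higher and 1 lower, beside 1 output gene higher, a share close to the 15.1% of all genes called there. *Noct*, which encodes the rhythmically expressed protein nocturnin, was higher by 1.29 ± 0.18 in iWAT (adjusted p = 7.90e-04). In LV of the same mice *Noct* measured 16.4, 16.5, 15.3, 15 and 15.6 TPM with PBS and 10.1, 11.1, 10.8, 12.8 and 12.8 TPM with leptin. The groups did not overlap, as for 0.975% of all genes in that direction, and the difference of -0.48 ± 0.08 did not pass the test (adjusted p = 0.068). The leptin effect on *Noct* was higher in iWAT than in LV by 1.75 ± 0.18 (adjusted p = 1.29e-06), and in LV of the cKO mice it stood at -0.64 ± 0.11 (adjusted p = 0.364). *Arntl2*, the paralog of *Arntl*, rose in iWAT from 3.76, 4.01, 3.44, 2.75 and 3.57 TPM to 7.32, 5.82, 5.55, 4.55 and 5.05 TPM without overlap, as did 4.32% of all genes (0.74 ± 0.14, adjusted p = 0.00393). *Bhlhe40*, a repressor that binds E-boxes, fell in iWAT from 93.1, 72.1, 55.7, 65.3 and 57.9 TPM to 34.1, 50.7, 39.8, 33.9 and 35.6 TPM, also without overlap, as did 14.3% of all genes (-0.73 ± 0.15, adjusted p = 0.0065).

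*Timeless*, which takes part in replication, rose by 0.57 in iWAT (adjusted p = 0.027) and by 0.59 ± 0.15 in female WT CV (adjusted p = 0.0333), the only one of the 16 called in CV, where 2.78% of genes were called higher. In female WT LV and in male WT CV 0 of the 16 clock genes and 0 of the 4 output genes were called by edgeR. At an unadjusted p under 0.05 the clock genes numbered 0 in LV and 3 in male CV, and the output genes 1 in LV and 4 in male CV, all 4 of the latter higher, beside 14.7% of all genes in LV in either direction and 9.45% higher in male CV. The male values of *Usp2* and *Noct* rest on the mice of the 600s, at 0.92 (adjusted p = 7.45e-04) and 1.17 (adjusted p = 0.00463) within the 600s and 0.06 and 0.01 within the 100s. The series differed for both (*Usp2* adjusted p = 0.017, *Noct* adjusted p = 0.04999). That split was chosen after the *Per1* and *Ciart* values were seen, so these p-values are not independent support. *Arntl* itself stood at -0.48 ± 0.17 in female WT CV (adjusted p = 0.102) and at -0.15 ± 0.38 in iWAT (adjusted p = 0.801).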

How the data were processed

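RNA of 79 libraries from 51 mice was analysed. The authors enriched mRNA by oligo dT, sequenced paired reads, filtered them with SOAPnuke and aligned them to GRCm38.p6 with HISAT and Bowtie2, while the labels also list GRCm39. The counting tool is not given in the sources used here. The authors deposited estimated counts per gene without normalization between samples, of which 51 values in 6 genes were not whole and were rounded. The authors also deposited TPM values, which set the levels printed here. Of 74693 features 39063 carried a numeric gene ID, the other 35630 held 0 counts, and 14873 genes whose mean reached 0.4 TPM were tested. The 10 genes, the further gene lists and the tests were chosen with earlier results of these data known.

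Groups came from the sample labels. Counts were fitted with edgeR 4.0.16 (TMM, quasi-likelihood test) in R 4.3.3, with Benjamini-Hochberg adjustment over all 14873 genes, and a gene was called at an adjusted p below 0.05 and a log2 fold change of at least 0.5. SE was the fold change divided by the root of F. Contrasts between tissues used the mouse as a block. The fits were tested on simulated counts. DESeq2 1.42.0, limma 3.58.1 on log2(TPM + 1) and log2(TPM + 0.1), no filter, covariates, the replicate block and leaving out each mouse were alternatives. Correlations between tissues of a mouse used residuals from group means and 100000 permutations within groups (scipy 1.17.1). All 10 members were named in each comparison. Further clock and output genes were named if called in a WT leptin comparison, by size, at most 8. The 5 genes most and least like *Dbp*, *Npas2* and *Per1* were ranked among those with a mean of at least 1 TPM in CV. Motifs were searched in RefSeq promoter windows of GRCm38.p6. The glucocorticoid response element, searched as a pattern that allows any base at some positions, was in 0.475% of all windows and in none of the member windows.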

Additional observations from a re-analysis of the deposited data

Results flagged for a closer look

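Among 160 sets of 1 gene in 1 group, 10 held a mouse set apart from the others by Dixon's test, and chance alone marks about 1 set in 20. *Per1* was at 82.4 TPM in replicate 6 of the males with leptin and insulin, with the next mouse at 41.6 TPM, and the same mouse had the lowest *Nr1d1* (70.2 TPM) and *Dbp* (37.3 TPM) and the highest *Ciart* (21.9 TPM) of its group. Replicate 2 of the female WT leptin mice was low in CV for *Per3* (13.2 TPM, others 19.8 to 22.4) and for *Cry1* (11.1 TPM, others 19.99 to 22.9). *Cry1* was at 6.93 TPM in LV of replicate 3 of that group (others 7.96 to 8.36) and *Ciart* at 1.5 TPM in LV of replicate 4 (others 0.34 to 0.65).

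*Nr1d1* was at 153 TPM in replicate 2 of the male cKO PBS mice (others 125.9 to 128.5) and at 193.6 TPM in replicate 2 of the males with PBS and insulin (others 147 to 159.5). *Nr1d2* was at 44.5 TPM in replicate 1 of the male cKO leptin mice (others 34.3 to 35.2) and at 40.8 TPM in replicate 1 of the males with PBS and insulin (others 44.8 to 45.9). *Ciart* was at 1.02 TPM in LV of replicate 4 of the female cKO PBS mice (others 0.5 to 0.58).

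The leptin effect differed between groups for 3 results. For *Nr1d2* it was 0.89 log2 units higher in iWAT than in CV of the same 10 mice (adjusted p = 0.00145). In male WT CV it was 1.88 log2 units higher in the 600s than in the 100s for *Per1* (adjusted p = 0.00374) and 1.17 units higher for *Ciart* (adjusted p = 0.0226), in a test chosen after the values were seen.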

How the results depend on the processing

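Of 316 recomputed counts of called members 291 stayed within 1.5 times the value reported, and of 715 recomputed single values 677 kept their direction and side of the threshold, 14 became called, 22 lost the call and 2 turned. In female WT CV the count of 1 became 0 with limma on log2(TPM + 1) or log2(TPM + 0.1), with no filter, with the number series (*Nr1d1* -0.47, adjusted p = 0.033) and with the muscle score as a covariate, and ranged from 0 to 1 when each mouse was left out. In female WT iWAT the count of 0 became 1 with DESeq2, with the number series as a covariate and with the replicate block (*Nr1d2* 0.67, adjusted p = 0.0482), and ranged from 0 to 1 without each mouse. In male WT CV it became 1 with the series as a covariate and in 1 fit of all CV groups. In female cKO CV it became 2 with DESeq2 and 1 in 1 fit of all CV groups, and for leptin with insulin against leptin it became 1 with DESeq2. The tissue differences ranged from 1 to 2 (iWAT against CV) and from 0 to 2 (iWAT against LV) without each mouse, the upper value of both without PBS replicate 5, and the count for iWAT against LV was 1 without leptin replicate 3.

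*Per1* turned to 0.15 (adjusted p = 0.809) for leptin with insulin against leptin without the 3 leptin mice of the 600s, an alternative chosen after seeing the data. *Cry1* turned to 0.056 (adjusted p = 0.778) for iWAT against LV with limma on log2(TPM + 0.1), where the median of all genes moved by 0.88. For the other changes the cause was not tested.

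Replicate numbers did not pair leptin and PBS mice, since deviations of same-numbered mice correlated at -0.408 to 0.448, and the replicate block changed no other count of leptin calls. Members under 1 TPM in LV, such as *Npas2* and *Ciart*, rest on few counts, and group sizes of 4 to 8 mice limit what could be detected.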

Other observations

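Genes that answer to acute stimuli and to glucocorticoids, which also act on *Per1*, were read beside the clock genes. In female WT iWAT 4 of 6 immediate-early genes were called higher with leptin by edgeR's quasi-likelihood test, namely *Nr4a1* (1.42 ± 0.37, adjusted p = 0.0172), *Egr1* (0.75 ± 0.18, adjusted p = 0.0125), *Ier2* (0.62 ± 0.14, adjusted p = 0.0105) and *Junb* (0.57 ± 0.15, adjusted p = 0.0159), where 15.1% of all genes were called, while *Per1* stood at 0.06 (adjusted p = 0.867).

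The 5 glucocorticoid targets *Fkbp5*, *Tsc22d3*, *Zbtb16*, *Klf9* and *Sgk1* had positive fold changes with leptin in male WT CV (median 0.79), female cKO CV (median 0.85) and male cKO CV (median 0.65), beside medians of all genes of 0.00, 0.02 and 0.00. In female WT CV their median was -0.19. None was called by edgeR in these 4 comparisons, and at an unadjusted p under 0.05 they numbered 5, 4, 4 and 0, all higher, beside 9.45%, 5.49%, 4.76% and 13.3% of all genes. Within the 100s of the male WT mice, without the 3 leptin mice of the 600s, their median was 0.22, 1 was higher at an unadjusted p under 0.05 beside 6.72% of all genes, and *Sgk1* stood at 0.17 (adjusted p = 0.657). *Per1* gave 1.08, 0.37, 0.59 and -0.19 in the same order.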
